A study of Anopheles gambiae with 6 samples.

Results

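Described here are the 200 Anopheles probe sets whose signal differed most between pools of whole larvae of the malaria mosquito Anopheles gambiae. They were taken from 16884 Anopheles probe sets on an Affymetrix array of 22761 probe sets in all. A probe set was eligible if its mean value was at least 7 in whole larvae and below 7 in salivary gland, with gland minus whole larvae above -4 (log2). Of the 1143 probe sets within these limits, the 200 with the largest standard deviation (SD) over the 3 whole-larva arrays were kept. The whole-larva values thus chose the members, and their spread between these pools is given as a description with no test. The values are RMA signals, a background-corrected and summarised probe brightness, on a log2 scale, so that a difference of 1 is a 2-fold difference.

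The study compared the larval salivary gland with the whole animal in last-instar (4th instar) larvae of strain G3, with no treatment named in the labels. Its gland group held 3 arrays, each with RNA pooled from 50 dissected larvae, and its whole-larva group held 3 arrays, each with RNA pooled from 200 larvae. All larvae were described as reared alike, and the pools of each group as separate biological repeats. The labels give neither sex nor age within the instar, and replicate numbers carry no order. The number of arrays, 3 a group, limits precision.

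The last larval instar is the stage in which a mosquito larva feeds, grows and prepares for pupation. A whole-larva extract mixes RNA of gut, fat body, epidermis, muscle, nervous tissue and many other tissues, the salivary gland among them. As background, transcript levels of insect larvae are known to change through an instar, under the moulting hormone ecdysone and juvenile hormone, and genes of cuticle formation and digestion are among those that do so. In such an extract, fewer cells of a type and less RNA per cell cannot be told apart. The Anopheles identifiers are not paired with genes in the files, and a gene table of 15165 genes matched 0 of them. Members are therefore described by identifier, which names a chromosome arm, a number and, for most, a coding (CDS) or untranslated (UTR) target.

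A typical member was several times as bright in its brightest whole-larva pool as in its dimmest, and low with little spread in gland. The median SD of the 200 members was 1.39 over whole-larva pools (interquartile range 1.14 to 1.77, highest 4.28), and 0.19 over gland pools (interquartile range 0.13 to 0.30). The 943 other probe sets within the level limits had a median SD of 0.43 over whole-larva pools and 0.19 over gland pools. In gland, whose spread the rule did not use, members and the other probe sets thus had medians that were equal to 2 decimals. Most gland signals of members were dim, as the limit on the gland mean favours. On each gland array 162 to 169 of the 200 (81.0% to 84.5%) lay at or under a floor. Of the 943 other probe sets within the limits, 66.1% to 69.4% did so. The floor was set on every array at the 95th percentile of 290 probe sets with purely numeric identifiers, whose targets the files do not state. A small spread in gland is a spread of such dim signals. The brightest whole-larva pool of a member exceeded its dimmest by a median factor of 6.23 (interquartile range 4.53 to 10.2, highest 176). In 71 members at least 1 whole-larva pool was at or under the floor, and with such signals raised to it the median factor was 5.75 (interquartile range 4.50 to 9.05, highest 159), a lower bound for those members. The 200th member had an SD of 0.9978 and the 199th 1.0035, and the first probe sets outside had 0.9954 and 0.9922, so the list ends in a continuous range.

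**Figure D1:**
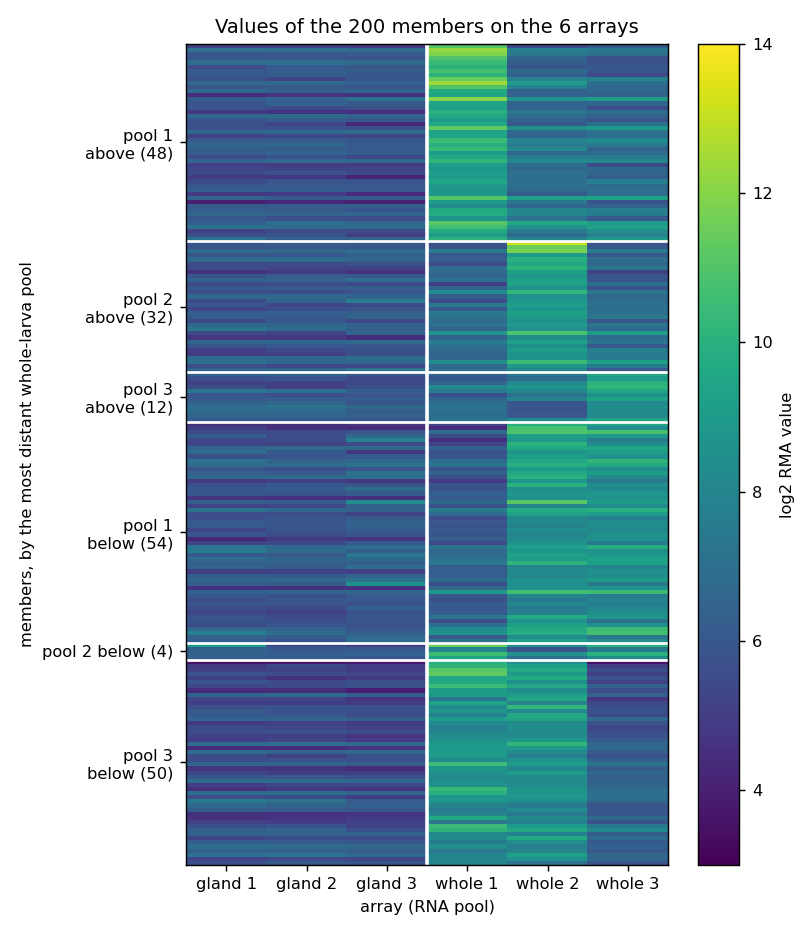
Log2 RMA values of the 200 members (rows) on the 3 gland and 3 whole-larva arrays (columns), grouped by the whole-larva pool farthest from the median pool and by whether it lay above or below, with counts in brackets, and ordered within a group by the distance to the median pool. The gland columns are mostly dark, with single brighter cells up to 9.05 for Ag.3R.390.0_CDS_at, whereas the bright and dark blocks of the whole-larva columns change from pool to pool.

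The most variable member was Ag.3R.118.0_CDS_s_at, a coding probe set on arm 3R. It had 5.99, 6.22 and 6.16 in the gland pools, and 5.93, 13.30 and 5.84 in whole-larva pools 1, 2 and 3. Whole-larva pool 2 stood alone, and the others lay just below the gland values and under the floor. Against the floor of pool 1, pool 2 was at least 159-fold above that pool. The floor of pool 3 was higher (6.11, against 5.99), so the bound for pool 3 is smaller. The neighbouring identifier Ag.3R.119.0_CDS_x_at had 5.82, 5.92 and 5.79 in gland, and 5.72, 11.44 and 6.01 in whole larvae, with pool 2 again alone. The other pools were under the floor here too, and pool 2 was at least 40.2-fold above the next pool. The suffixes _s_at and _x_at mark probe sets that may bind more than 1 transcript, so these neighbours may report shared sequence.

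The members ranked 2 and 3 by SD were low in a single whole-larva pool. Ag.3R.3712.0_at, on arm 3R, had 3.52, 3.69 and 3.75 in gland, and 9.84, 8.55 and 3.62 in whole-larva pools 1, 2 and 3. Pool 3 lay at the gland level and under the floor, and thus at least 5.45-fold below the next pool. Ag.2L.2462.0_CDS_at, on arm 2L, had 5.01, 4.48 and 4.37 in gland, and 4.39, 10.78 and 8.35 in whole-larva pools 1, 2 and 3. Here pool 1 was the low one, within the gland range and under the floor, at least 5.14-fold below the next pool, while pool 2 also exceeded pool 3 by 2.43 (log2). In all 4 of these members the gland and whole-larva groups overlapped.

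No single pool was the odd one for all members. Each member was assigned the whole-larva pool farthest from its median pool. Pool 1 was that pool for 48 members in which it lay above the others and for 54 in which it lay below. Pool 2 was above the others in 32 members and below them in 4. Pool 3 was above the others in 12 members and below them in 50. As shares of members, above and below, these were 24% and 27% for pool 1, 16% and 2% for pool 2, and 6% and 25% for pool 3. Among the 943 other probe sets within the limits they were 16.5% and 20.9%, 22.1% and 12.0%, and 13.8% and 14.7%. Over all pools, the distant pool lay above in 92 members and below in 108, and it held at least 80% of the range in 91 members (45.5%, against 37.8% of the 943 other probe sets within the limits). Of the 20 most variable members, 9 had pool 1 above, 3 had pool 1 below, 3 had pool 2 above and 5 had pool 3 below.

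The size of the step differed by less than 1.5 times among the 4 large groups. Where pool 1 stood above, the 48 members had medians of 9.74, 7.08 and 6.94 in whole-larva pools 1, 2 and 3, and the distance of pool 1 to the next pool had a median factor of 4.82. Where pool 1 stood below, the 54 members had medians of 6.18, 8.86 and 8.51 in the same pools, with a median factor of 4.17. Where pool 3 stood below, the 50 members had medians of 8.61, 8.53 and 6.18, with a factor of 3.77, and where pool 2 stood above, the 32 members had 6.67, 9.09 and 6.97, with a factor of 3.42. The 12 members with pool 3 above (2.72-fold) and the 4 with pool 2 below (2.88-fold) had smaller steps. These factors come from the values that chose the members. The low pool was at or under the floor in 20 of the 54 members with pool 1 below and in 24 of the 50 with pool 3 below, and with it raised to the floor the median factors there were 3.93 and 3.47.

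Members did not rise and fall together as 1 block. Pool 2 had the highest value in 87 members, pool 1 in 81 and pool 3 in 32 (43.5%, 40.5% and 16%). Of the 943 other probe sets within the limits, 38.5%, 29.6% and 31.9% were highest in these pools. Pool 3 had the lowest value in 92 members, pool 1 in 80 and pool 2 in 28 (46%, 40% and 14%). Of the other probe sets, 35.1%, 39.3% and 25.6% were lowest in these pools. The median deviation from the 3-pool mean was 0.05 in pool 1, 0.66 in pool 2 and -0.69 in pool 3 (log2). Among the 943 other probe sets within the limits these medians were -0.06, 0.07 and -0.03. The lead of pool 2 over pool 1 depended on the processing: after quantile normalization was applied again, 47% of the members then chosen were highest in pool 1 and 33.5% in pool 2, with median deviations of 0.54, 0.28 and -0.45. Pool 3 was highest in the fewest members, and pool 2 lowest in the fewest, with each other scaling, list length, probe set filter and the higher level limit for which these shares were computed. All 6 possible orders of the pools occurred. The most frequent order, from high to low, was pool 1, 2, 3 with 57 members, followed by 2, 3, 1 with 52, and the rarest was 3, 1, 2 with 4. These orders made up 28.5%, 26% and 2% of members, and 15.6%, 19.0% and 11.6% of the other probe sets.

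With 3 pools, the deviations of a member vary in a plane with 2 axes. The first axis, which sets pool 1 (weight 0.81) against pools 2 and 3 (-0.35 and -0.47), held 66.2% of the members' squared deviations, against 55.1% among the 943 other probe sets, and the second held 33.8%. Of the 19900 pairs of members, 19.3% had a correlation over the 3 pools above 0.9 and 14.3% one below -0.9, against 15% and 14% of pairs among the other probe sets. These correlations rest on 3 arrays that all members share, and they are descriptions. Members thus included pairs that moved together and pairs that moved oppositely, the latter at nearly the share found among the other probe sets.

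**Figure D2:**
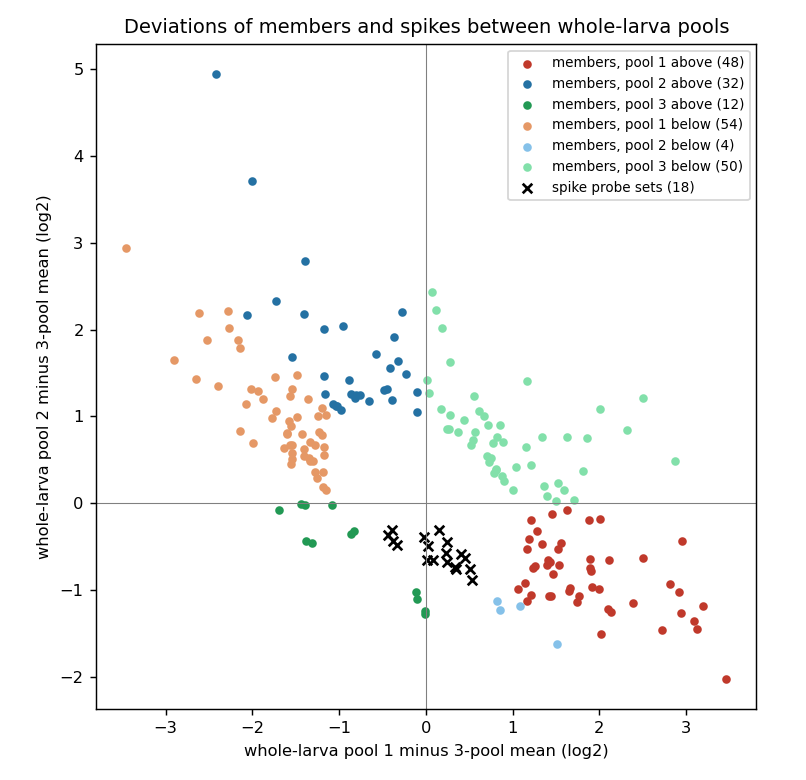
Deviation of each member (dots, coloured by the most distant whole-larva pool and its side) and of the 18 spike probe sets (crosses) from its own 3-pool mean, for whole-larva pool 1 (x axis) and pool 2 (y axis), in log2 units. Members form a ring around the centre, which the choice by a large SD leaves empty. The ring is thin at the lower left, with 12 members, against 50 at the upper right. Since the 3 deviations of a probe set sum to 0, these corners cover fewer directions than the other corners. All 18 crosses lie below 0 on the y axis near the centre, 13 of them to the right of 0 and 5 to the left.

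Array spikes gave the spread of hybridization control signals, which is not the whole spread that arises without mosquito RNA. On Affymetrix arrays, bioB, bioC and bioD come from biotin genes of Escherichia coli and cre from bacteriophage P1, and they serve as hybridization controls. Over whole-larva pools, the median SD of their 18 probe sets was 0.61 (lowest 0.26, highest 0.77). The members' median was 2.26 times the spikes' median, and the smallest member SD was 1.30 times the largest spike SD, so 200 of 200 members exceeded every spike probe set. By contrast, 127 of the 943 other probe sets within the limits did so (13.5%), and their median SD was 0.70 times that of the spikes. Over all 16884 Anopheles probe sets, 1096 (6.49%) exceeded the largest spike SD, and the median SD was 0.26, below the spikes' median. Since members were selected for a large SD, these ratios say how far the list lies from the spikes and are not tested.

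The same comparison in gland gave a small ratio. There the spikes had a median SD of 0.16 (lowest 0.02, highest 0.38), and the members' median was 1.23 times as large, against 1.24 times for the 943 other probe sets within the limits. Of the members, 30 (15%) exceeded the largest spike SD in gland, against 13.5% of the other probe sets. The spike probe sets were brighter in gland (6.42 to 13.2) than most members, which were at or under the floor there.

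The spikes deviated in another direction than most members. On the whole-larva array of pool 2, 16 of 18 spike probe sets had their lowest value, and on that of pool 3, 12 of 18 had their highest. Averaged over its probe sets, bioB had 7.57, 6.90 and 7.96 in whole-larva pools 1, 2 and 3, and bioD had 11.10, 9.89 and 11.03. The cre spike had 12.89, 12.08 and 12.76 in the same pools. For these spikes pool 2 lay below both other pools. The bioC spike differed, with 8.39, 8.38 and 9.56, so that pool 3 was alone above the others. The mean deviation of the 18 spike probe sets was 0.11, -0.56 and 0.45 in pools 1, 2 and 3, and that of the members 0.05, 0.48 and -0.54. Their part in the members' pattern was not tested.

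The spikes' median SD rested largely on pool 2, though for bioC pool 3 stood alone. Without pool 2, and with the 200 members chosen anew from the remaining pair of pools, the ratio of median SDs was 8.08. It was 1.54 without pool 1 and 2.87 without pool 3. When each array was instead centred on its mean spike value, the ratio was 5.86. That scaling moved the median deviation of all Anopheles probe sets to -0.09, 0.55 and -0.46 in pools 1, 2 and 3, and 72.5% of the members chosen under it were highest in pool 2. Their median deviations were -0.38, 1.31 and -1.10. These members were chosen by SD after that shift, so nothing about the spikes' part is read from them.

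**Figure D3:**
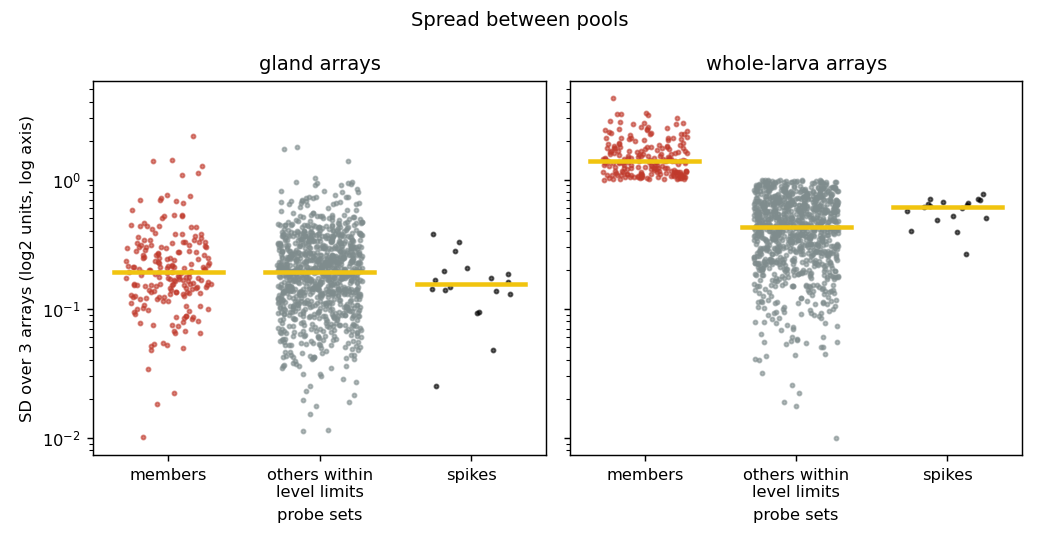
SD over the 3 gland arrays (left) and the 3 whole-larva arrays (right) for the 200 members, the 943 other probe sets within the level limits and the 18 spike probe sets, on a log axis; each dot is a probe set and each yellow bar a median. On gland arrays the medians are 0.19, 0.19 and 0.16, and on whole-larva arrays they are 1.39, 0.43 and 0.61.

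Other controls of the arrays differed less between the whole-larva pools than the members did. Actin, a cytoskeletal protein, had 12.11, 12.46 and 11.66 at its middle control probe set in whole-larva pools 1, 2 and 3, and Gapdh, a glycolytic enzyme, had 12.23, 13.14 and 13.13. Actin was lowest in pool 3 and Gapdh in pool 1, so these controls did not share a lowest pool. The difference between their 3′ and 5′ probe sets, a customary gauge of RNA quality, was 1.35, 1.64 and 1.40 for actin and 0.87, 0.83 and 0.95 for Gapdh. Whether RNA quality bears on the members was not tested. The 24 probe sets for the Bacillus genes dap, lys, phe and thr, designed as controls of labelling, were dim on every array (3.16 to 6.37), with a median SD of 0.15 over whole-larva pools.

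In their dimmest whole-larva pool, members came close to the gland level. The lowest pool lay within 1 log2 unit of the gland mean in 133 of the 200 members (66.5%), against 493 of the 943 other probe sets within the limits (52.3%). In the median member the dimmest pool lay 0.34, the middle pool 2.08 and the brightest pool 3.39 above the gland mean. For the other probe sets these medians were 0.89, 1.39 and 1.86. All 3 whole-larva pools exceeded the floor in 129 members (64.5%). Of the 71 members with a pool at or under it, 68 had a single such pool and the other 3 had a pair. Among the other probe sets within the limits, 3 of 943 had a pool at or under it. The limit on the whole-larva mean together with a large SD favours such values in members.

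By pool, the signals at or under the floor were uneven. On the gland arrays 169, 166 and 162 of the 200 members lay at or under the floor, which was 6.69, 6.64 and 6.62 there. Of the 943 other probe sets within the limits, 623, 654 and 650 did so. On whole-larva arrays 1, 2 and 3 there were 26, 5 and 43 such members, with floors of 5.99, 5.97 and 6.11. Of the other probe sets, 1, 0 and 2 lay at or under these floors. Pool 2 thus showed nearly all members above the floor.

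The values of most members, dim as they were in gland, differed little between gland pools. Gland pools 1, 2 and 3 had the highest value in 63, 67 and 70 members, and the median deviations were 0.0045, 0.02 and -0.04 (log2). The exceptions were 6 members whose gland SD reached the smallest SD with which members varied in whole larvae, against 4 of the 943 other probe sets within the limits. In 5 of the 6 gland pool 3 was farthest from the median gland pool, above it in 4 and below it in 1.

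Those 4 members also had the whole-larva pools in the same order, and they are named here because of their values. Ag.3R.780.0_CDS_at had 5.35, 5.66 and 7.88 in the gland pools, and 4.51, 8.91 and 7.68 in whole-larva pools 1, 2 and 3. Ag.3R.902.0_CDS_at had 6.25, 6.11 and 8.38 in gland, and 6.69, 11.19 and 9.04 in whole larvae. Ag.2R.185.0_CDS_at had 6.14, 6.13 and 8.60 in gland, and 5.65, 8.51 and 7.42 in whole larvae. In each of them gland pool 3 was high beside the other gland pools, and whole-larva pool 2 was highest, pool 3 intermediate and pool 1 lowest. The fourth, Ag.2R.1071.0_CDS_s_at, had 5.42, 6.38 and 7.66 in gland, and 5.54, 8.77 and 6.95 in whole larvae, in the same order. Its most distant whole-larva pool was pool 2, whereas that of the members named before it was pool 1. This order of whole-larva pools was found in 26% of all members and in 19.0% of the 943 other probe sets within the limits. The largest gland spread belonged to Ag.3R.390.0_CDS_at, with 9.05, 5.56 and 5.10 in gland, and 11.47, 8.33 and 10.07 in whole-larva pools 1, 2 and 3, so that the pools numbered 1 were the bright ones in both tissues. The sixth, Ag.3R.12.2_s_at, had 6.89, 6.12 and 4.75 in gland, and 5.72, 8.70 and 9.18 in whole larvae. Equal replicate numbers do not pair the gland and whole-larva pools in the labels.

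The test that compares the tissues uses the whole-larva arrays whose spread chose the members, and a large spread there raises the error of the fit. In limma's moderated test, with Benjamini-Hochberg adjustment over all Anopheles probe sets, an adjusted p under 0.01 and at least a 2-fold difference, 20 members (10%) were lower in gland, and 134 were lower at an unadjusted p under 0.05. Over all Anopheles probe sets 4.99% were lower in gland by that rule, and 44.5% of the 943 other probe sets within the limits. None of the members was higher in gland (0 of 200, 0 also at an unadjusted p under 0.05), where 2.39% of all Anopheles probe sets were. The 3 gland values lay below all 3 whole-larva values in 108 members (54.0%), where 17.7% of all Anopheles probe sets did so, and in 81.9% of the other probe sets within the limits. No member had all gland values above those of whole larvae, where 24% of all Anopheles probe sets did. The rule required a lower mean in gland and a large SD in whole larvae, so nothing is read from these counts. The count of 20 became 83 without whole-larva pool 1, 57 without pool 3 and 65 with array weights, and 0 without any 1 of the gland pools.

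Where another probe set carried the same identifier number as a member, it mostly leaned the same way with a smaller step. In 5 numbers both probe sets were members, and in all 5 the pools came in the same order, with correlations over the 3 pools of 0.947 to 0.999. Probe sets that were not members but shared a number with one were found for 29 numbers, 33 probe sets in all. The rule did not choose these 33, but they share pools and arrays with the members. Taking the member's most distant pool against the mean of the other pools, 28 of the 33 (84.8%) deviated to the same side. Their median distance in the member's direction was 0.99, against 2.0 for the members themselves (log2).

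The share on the same side was near that of other numbers. Over 1940 probe sets of 1624 numbers without members, each set against the most variable probe set of its number, 73.3% deviated to the same side with a median distance of 0.20. Where both had a whole-larva mean of at least 7, 85.7% of 481 did so, with a median distance of 0.41. For members, 18 of the 22 such probe sets (81.8%) did, with a median of 1.02. Members had been chosen for large steps of their own: within these pairs the members' median was 1.85, against 0.86 for the most variable probe sets of the other numbers.

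Examples from arms 2R, 2L and 3L, picked after their values were seen, show the range. Ag.2R.442.0_UTR_at, an untranslated-region probe set at a whole-larva mean of 10.37, lay 4.33 below the other pools in pool 3, where the member of number 442 on 2R lay 3.59 below. Ag.2L.918.0_UTR_a_at lay 2.32 above in pool 1, where its member lay 3.58 above. Ag.2R.450.0_CDS_s_at went the other way, 1.71 above in pool 1, where its member lay 2.34 below. Ag.3L.1661.0_CDS_at, with a whole-larva mean of 4.86, lay 0.36 above in pool 1, where its member lay 4.79 above.

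**Figure D4:**
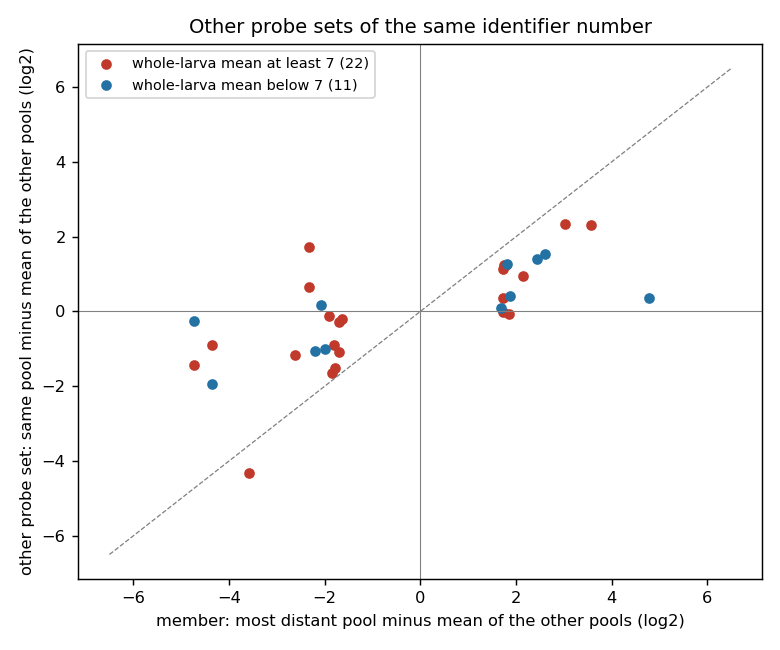
For each of 33 probe sets that share an identifier number with a member without being one, the member's most distant whole-larva pool minus the mean of the other pools (x axis) and the same difference for the other probe set (y axis), in log2 units, coloured by the other probe set's mean in whole larvae; the dashed line marks equal values. Of the 33, 28 lie in the upper right or lower left, mostly closer to 0 than the line.

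Members came from all chromosome arms. Arm 2L held 64 of them (32.0%, against 22.3% of the 943 other probe sets within the limits), 2R held 45 (22.5%, against 30.1%), 3R 44 (22.0%, against 18.9%), 3L 26 (13.0%, against 16.1%) and X 12 (6.0%, against 8.38%), and 9 had no placed arm (4.50%, against 4.24%). No test was made of these shares. Coding targets made up 78.0% of members and 80.2% of the others, and untranslated targets 4.00% and 7.42%. The suffixes _s_at and _x_at stood on 30 members (15%, against 10.2%). On 2L, pool 1 was the distant pool above the others in 18 members and below them in 15, pool 2 above in 14, and pool 3 below in 12 and above in 5.

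Members with neighbouring identifier numbers were often distant in the same pool. Members had 195 distinct numbers, and in 9 pairs of consecutive numbers both were members. In 7 of these 9 pairs the same pool was distant on the same side, and in 4 the pools came in the same order. Within the level limits as a whole, members included, 28 of 129 consecutive pairs shared the distant pool and side (21.7%) and 27 the order. The members' pairs were few and chosen by values, so no test was made. Some of them hold _s_at or _x_at probe sets, such as 1917 and 1918 on 2L, and may report shared sequence. Besides the pair at 118 and 119 on 3R, Ag.2L.1917.0_CDS_at had 5.16, 5.23 and 5.01 in gland, and 11.08, 5.60 and 6.18 in whole-larva pools 1, 2 and 3. Its neighbour Ag.2L.1918.0_CDS_s_at had 5.61, 6.19 and 6.09 in gland, and 10.04, 5.86 and 6.06 in whole larvae, so pool 1 stood alone at both. The pair at 258 and 259 on 2L went opposite ways. Ag.2L.258.0_CDS_at had 6.91, 9.60 and 10.21 in whole-larva pools 1, 2 and 3, with pool 1 low, and its neighbour at number 259 had 9.57, 7.06 and 7.76, with pool 1 high. These pairs, too, were picked after their values were seen.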

How the data were processed

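Transcript levels were measured on 6 arrays, 3 of larval salivary gland and 3 of whole larvae, grouped by their titles. The deposited values are log2 signals per probe set made by the authors with RMA, per the submitters' processing notes, which name no other tool; the log2 scale is taken from their range (2.46 to 14.9). Its version and settings, the scan dates and the set of arrays normalized together are unstated there. Identical values were found in 0 pairs of arrays.

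Members were found from the deposited values by the level limits and the SD (n - 1), and they and all lists were chosen with earlier results of these data known. Named by rule were the 2 most variable members with the distant pool above and the 2 with it below; others are named as picked after their values were seen. Gland minus whole larvae was fitted with limma 3.58.1 in R 4.3.3 (lmFit, eBayes with trend) over 16884 probe sets, group as the only term, Benjamini-Hochberg adjusted; no floor on detection was set. On simulated data for this comparison with 16884 probe sets, it recovered 10 of 50 probe sets changed by 1, 39 of 50 by 2, 46 of 50 by 3 and 47 of 50 by 4 (log2), and called 1 unchanged one. Each simulated probe set had the same SD in both groups, and the changed ones were drawn at random from all. Most members spread more in whole larvae than in gland, so these counts do not describe the fit for them. The other comparisons are descriptions, computed in Python 3.11.15. Alternatives were other scalings, spread measures, limits, list lengths, probe set filters, fits and leaving out each array.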

Additional observations from a re-analysis of the deposited data

How the results depend on the processing

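Fewer members stayed when a whole-larva pool was left out than under any of the other scalings. Leaving out a pool removes part of the spread that chose the members, so the rule itself favours this difference. With members chosen anew, 187 of the 200 stayed after centring on the Anopheles median, 172 after repeated quantile normalization and 133 after centring on the spikes; 77 stayed with a whole-larva mean of at least 8, and 91 to 126 when 1 whole-larva pool was left out. The median SD became 0.89 with that limit, 1.77 for 100 members and 1.00 for 400. The ratio to the spikes became 1.45 with that limit and 5.86 with spike centring, and was 1.54 to 8.08 when a whole-larva pool was left out. Members highest in pool 1 were 25.5%, in pool 2 72.5% and in pool 3 2.0% with spike centring, and 9.0% were highest in pool 3 for 100 members and 30.0% at the higher limit. Members lowest in pool 2 were 0.50% with spike centring, 22.0% after quantile normalization and 25.5% at the higher limit, where 29.0% were lowest in pool 3. Pool 1 led pool 2 as the highest pool after quantile normalization (47% and 33.5%), for 100 members (46% and 45%) and at the higher limit (35.5% and 34.5%). The cause was not tested. Members lower in gland numbered 0 by the equal-variance test and 65 with array weights, and 0 to 83 when 1 array was left out.

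Over all Anopheles probe sets, 403 higher and 843 lower in gland became 34 and 97 by the equal-variance test, and 658 were higher after quantile normalization; leaving out 1 array gave 146 to 407 higher and 410 to 1044 lower. The labels do not pair the pools by replicate number. Deviations of same-numbered gland and whole-larva arrays from their group means correlated at 0.10, -0.09 and -0.0022 over 16884 probe sets. Gland arrays 1 and 2 correlated best with whole-larva array 1 (0.10 and 0.12), and gland array 3 with whole-larva array 2 (0.19). Deviations from a mean of 3 arrays constrain one another, so these values cannot decide whether pools were paired. With the replicate number as a block, 253 were higher, 698 lower and 25 members lower in gland. Of 189 recomputed values, 152 stayed within 1.5 times (for a median SD, within the median Anopheles SD of 0.26). The tally includes values that the rule all but fixes, such as the absence of members higher in gland. No order of pools can be given when a pool is left out.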

Other observations

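Large differences between whole-larva pools were also found outside the members' level limits. Of the 16884 Anopheles probe sets, 545 had an SD over whole-larva pools at or above the smallest member SD, and 200 of these were the members. Another 193 had a whole-larva mean below 7. Among them pool 2 was highest in 94, pool 1 in 81 and pool 3 in 18, and pool 3 was lowest in 109. A further 123 had a gland mean of at least 7, and in these pool 2 was highest in 56 and pool 1 lowest in 60, with a median SD of 1.31 over whole-larva pools and 0.39 over gland pools. The last 29 lay at or under the limit of -4 for gland minus whole larvae, with pool 3 highest in 11 and pool 1 lowest in 17.

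None of the 4506 probe sets of Plasmodium form and none of the 290 with numeric identifiers reached that SD (0 each). Their largest SDs over whole-larva pools were 0.88 and 0.63. Most of them were dim, with medians per array of 3.13 to 3.24 and 4.52 to 5.07, below the members' limit of 7 in whole larvae. These counts thus say little about brighter probe sets. Of 937 probe sets with identifiers of GenBank form, 8 reached the smallest member SD. The most variable of these 8 had 10.59, 10.61 and 13.30 in gland pools 1, 2 and 3, and 4.98, 14.21 and 13.67 in whole-larva pools 1, 2 and 3, an SD of 5.18, larger than that of any Anopheles probe set (highest 4.99). Its gland pool 3 was high and its whole-larva pool 1 low, as in the 4 members named for a high value in gland pool 3. The files do not state what it targets.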
